A study of Homo sapiens with 9 samples.

Results

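The genes described here are those of the mitochondrial ribosomal proteins, taken as every row of the count table whose Ensembl identifier maps to a protein-coding gene with a symbol of MRPL or MRPS followed by a number. This gave 78 of the 60448 rows, of which 29 carry small-subunit names (MRPS) and 49 carry large-subunit names (MRPL). RNA was sequenced from cells labelled Huh7, a line from a human hepatocellular carcinoma, grown in DMEM. There were 3 groups of 3 libraries: the OPA1 knock-down sets N_28 and N_30, and the control. The knock-down used lentivirus, and the labels give that same treatment text for the control libraries. The meaning of the names N_28 and N_30 is not stated in the labels, and neither is whether replicate libraries were grown as separate cultures. The p-values therefore reflect the spread among these libraries alone, and that spread may be technical. The comparison addressed is whether transcripts for the small and the large subunit changed when OPA1, a GTPase that fuses the inner mitochondrial membrane, was lowered.

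The mitochondrial ribosome translates the few mRNAs encoded in mitochondrial DNA, all of which specify subunits of the respiratory chain and of ATP synthase. Its small subunit binds the mRNA and decodes it, and its large subunit joins the amino acids. Both subunits combine mitochondrially encoded rRNA with proteins that are encoded in the nucleus, made in the cytosol and imported. Some of these proteins have bacterial counterparts and others are found only in mitochondrial ribosomes. Structures of the human particle place MRPS30 and MRPS18A in the large subunit in spite of their names, and MRPS36 is known as a part of the 2-oxoglutarate dehydrogenase complex.

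The depth of the libraries ran from 16476389 to 22863328 counts. OPA1 stood at 53.3, 55.7 and 57.8 CPM (read counts scaled for library size) in N_28, at 64.2, 63.3 and 65.9 CPM in N_30, and at 82.8, 92.9 and 90.5 CPM in control. Both knock-down sets lay below every control library, and N_30 lay above N_28. Defining hepatocyte genes were close to absent in all 9 libraries, with at most 10 counts of ALB, 4 of APOA1, 4 of HNF4A and 0 of APOB per library and none of the 8 markers above 6.59 CPM, so the labelled cell type was not borne out by these 8 markers. The keratins KRT8 and KRT18, which hepatocytes also express, were at 292 to 489 CPM and at 84.8 to 114 CPM. The other epithelial markers, CDH1 and EPCAM, were low, at 0.846 to 2.64 CPM and at 0 to 0.33 CPM. The mesenchymal marker VIM was at 1370 to 1540 CPM. In such bulk RNA, a lower share of cells that express a gene and less of its RNA per cell cannot be told apart.

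The promoters of 4 members on which the results turn are shown first: the 3 members called in N_28 against control (MRPS16, MRPS6 and MRPL43), and MRPL40, which had the lowest adjusted p after MRPS16 in N_30 against N_28. Each sequence runs from 250 bases before to 50 bases after the RefSeq start of the gene on GRCh38.p14, 5′ to 3′ on the gene's own strand. Capitals mark matches on either strand to the 3 motifs of factors known for nuclear genes of mitochondrial function: GCGC, any 1 base and TGCGC for NRF1, CCGGAAG for ETS factors such as GABPA, and AANATGGCG for YY1.
MRPS16 (chr10:73252595-73252894, minus strand): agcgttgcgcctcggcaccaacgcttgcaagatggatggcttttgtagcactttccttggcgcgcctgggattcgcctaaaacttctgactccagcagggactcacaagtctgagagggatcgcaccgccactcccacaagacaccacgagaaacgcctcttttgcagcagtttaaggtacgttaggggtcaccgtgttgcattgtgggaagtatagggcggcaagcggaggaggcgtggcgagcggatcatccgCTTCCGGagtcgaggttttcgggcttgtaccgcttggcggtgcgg
MRPS6 (chr21:34073328-34073627, plus strand): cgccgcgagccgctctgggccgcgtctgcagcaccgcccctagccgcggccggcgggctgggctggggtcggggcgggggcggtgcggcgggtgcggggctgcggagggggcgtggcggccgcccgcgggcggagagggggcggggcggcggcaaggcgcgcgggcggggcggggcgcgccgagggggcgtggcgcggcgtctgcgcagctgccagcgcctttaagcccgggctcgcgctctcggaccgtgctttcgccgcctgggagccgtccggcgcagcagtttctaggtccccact
MRPL43 (chr10:100987448-100987747, minus strand): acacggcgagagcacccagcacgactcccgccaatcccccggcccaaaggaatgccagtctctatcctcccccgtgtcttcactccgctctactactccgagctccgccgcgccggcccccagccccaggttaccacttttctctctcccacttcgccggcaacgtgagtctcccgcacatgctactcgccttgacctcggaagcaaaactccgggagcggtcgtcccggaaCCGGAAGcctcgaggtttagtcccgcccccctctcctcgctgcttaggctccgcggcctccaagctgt
MRPL40 (chr22:19432295-19432594, plus strand): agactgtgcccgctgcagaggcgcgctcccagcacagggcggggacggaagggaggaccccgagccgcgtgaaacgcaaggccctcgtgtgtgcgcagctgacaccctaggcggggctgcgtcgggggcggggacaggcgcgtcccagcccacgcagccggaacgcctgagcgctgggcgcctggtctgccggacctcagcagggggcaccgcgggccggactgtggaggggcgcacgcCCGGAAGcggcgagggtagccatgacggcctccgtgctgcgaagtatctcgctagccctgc
MRPS16 held 1 ETS match, written as its reverse complement, 6 bases after the start, MRPL43 held 1 at position -18 and MRPL40 1 at position -11. None of the 3 motifs was found in the MRPS6 window, which held 9 matches to the GC box GGGCGG. A match is a description of letters and not a site shown to be bound.

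Among the promoters of the 69 members found in the RefSeq table, 47 (68.1%) held at least 1 of the 3 motifs, against 33.2% of the tested protein-coding genes. The ETS motif was in 29 of 69 (42.0%, against 19.4%) and the YY1 motif in 18 of 69 (26.1%, against 6.91%). The NRF1 motif was in 8 of 69 (11.6%, against 11.8%), close to the share in other genes. The small and the large subunit were alike in the share with an ETS match (12 of 27 and 17 of 42) and with a YY1 match (7 of 27 and 11 of 42). Other motifs were no more frequent than in the tested protein-coding genes: the CCAAT box CCAAT was in 20 of 69 members, against 36.4% of those genes, and the GC box in 42 of 69 (60.9%, against 70.7%). No member had ETS and YY1 matches that overlapped each other. For 64 of the 69 members, the first transcribed bases of the window were also found in a GENCODE release 29 transcript of the same gene.

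The members were mostly expressed at moderate levels. In control libraries their mean CPM had a median of 48.1 over the 78 genes, 45.7 for the small and 48.2 for the large subunit, with 70 genes at 10 CPM or more and 10 at 100 CPM or more. Levels between genes were compared per kilobase of the principal transcript, the longest where several tied. On that scale, control levels had a median of 25.2 CPM per kilobase in the small subunit and 36.2 in the large. MRPL42, with a transcript of 15582 bases, had 68.1 CPM but 4.37 CPM per kilobase in control. How far the subunit medians per kilobase depend on the choice of transcript was not tested. The highest large-subunit levels were those of MRPL15, MRPL37 and MRPL14, at 119 ± 1.19, 115 ± 2.97 and 108 ± 4.12 CPM per kilobase in control (SD, n = 3). MRPL14 lies at the interface of the subunits. In the small subunit, MRPS34 (107 ± 7.52 CPM per kilobase), MRPS7 (86.3 ± 4.52) and MRPS12 (82.1 ± 1.60) were highest in control. In this order, MRPL14 and MRPS34 lay within 1 SD of each other, as did MRPS7 and MRPS12.

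The lowest members were mainly genes whose coding bases lie inside exons of another gene on the same strand, where reads may be assigned to either row or to neither. More than 50% of the coding bases were shared in this way in 8 members (MRPS24, MRPL53, MRPL38, MRPL46, MRPS28, MRPS17, MRPL12 and MRPL30). Their control levels had a median of 3.15 CPM and a range of 0.278 to 26.1 CPM, and 6 of the 8 were under 10 CPM. Of the other 70 members, with a median of 51.7 CPM, only MRPS18C and MRPS31 were under 10 CPM. MRPS18C shares 45.1% of its coding bases with exons of ABRAXAS1 on the opposite strand, and the use of strand in counting is not stated. MRPS31 shares none on either strand. MRPS24, an mRNA-entrance protein known as uS3m, was lowest, with 2 to 10 counts per library and 0.393 CPM per kilobase in control. It was the 1 member that did not pass the filter on low counts, so 77 members were tested. Per kilobase in control, MRPL53 (1.245 CPM), MRPL38 (1.27 CPM), MRPS18C (1.96 CPM), MRPL46 (2.43 CPM) and MRPS17 (2.73 CPM) followed. The rows of the same-strand partners of the 8 members averaged at most 0.128 CPM in control (AC079447.1 beside MRPL30). The exception was CCDC142 beside MRPL53, at 9.90 CPM. How far the counting of shared reads sets the levels of these members was not tested. Pseudogenes took few reads: 80 rows named as copies of members held 1526 reads in all, or 0.193% of the members' own reads.

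**Figure D1:**
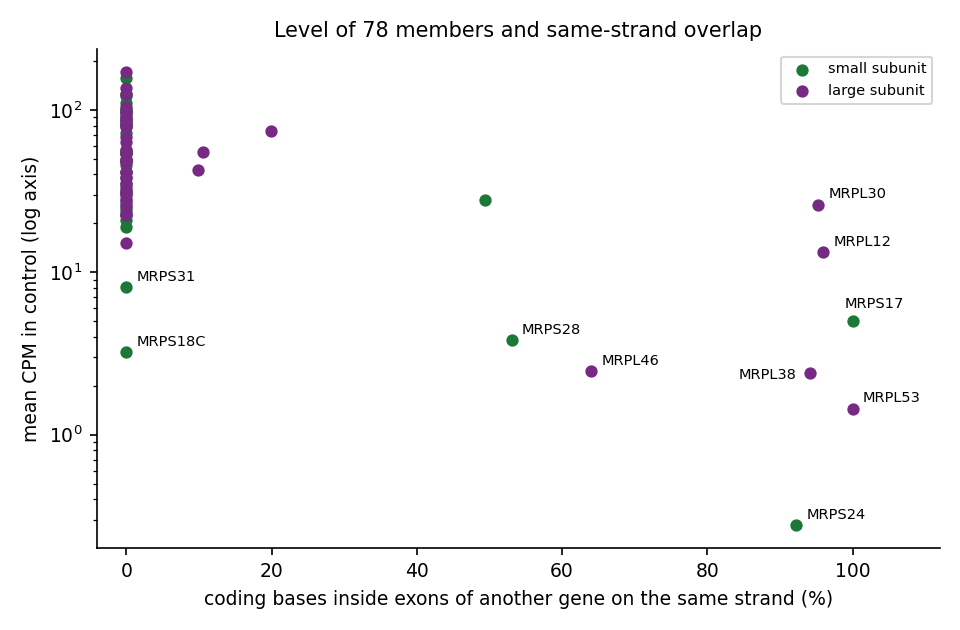
Mean CPM in control (log axis) of each of the 78 members against the percent of its coding bases that lie inside exons of another gene on the same strand; points are genes, coloured by subunit. Of the 8 genes above 50%, 6 are under 10 CPM, while only MRPS18C and MRPS31 are under 10 CPM among the other 70.

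The summed level of neither subunit moved apart from control. The summed small-subunit CPM was 1674, 1606 and 1589 in N_28, 1585, 1694 and 1733 in N_30, and 1599, 1666 and 1635 in control. The summed large-subunit CPM was 2693, 2668 and 2629 in N_28, 2576, 2760 and 2780 in N_30, and 2604, 2682 and 2692 in control. For both subunits, the libraries of all 3 groups overlapped. The small subunit's sum divided by that of the large was 0.622, 0.602 and 0.604 in N_28, 0.615, 0.614 and 0.624 in N_30, and 0.614, 0.621 and 0.607 in control. As mean ± SD over 3 libraries this was 0.609 ± 0.0106 in N_28, 0.618 ± 0.00513 in N_30 and 0.614 ± 0.00692 in control, with no separation between groups. With MRPS30 and MRPS18A counted in the large subunit and MRPS36 left out, the ratio was 0.555 ± 0.0105 in N_28, 0.571 ± 0.00621 in N_30 and 0.567 ± 0.00610 in control, and the libraries of the knock-down sets still overlapped those of control. This second grouping was chosen after the data had been seen. As a share of all counts, the members made up 0.426% ± 0.00465 in N_28, 0.438% ± 0.0167 in N_30 and 0.430% ± 0.00998 in control (SD, n = 3).

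**Figure D2:**
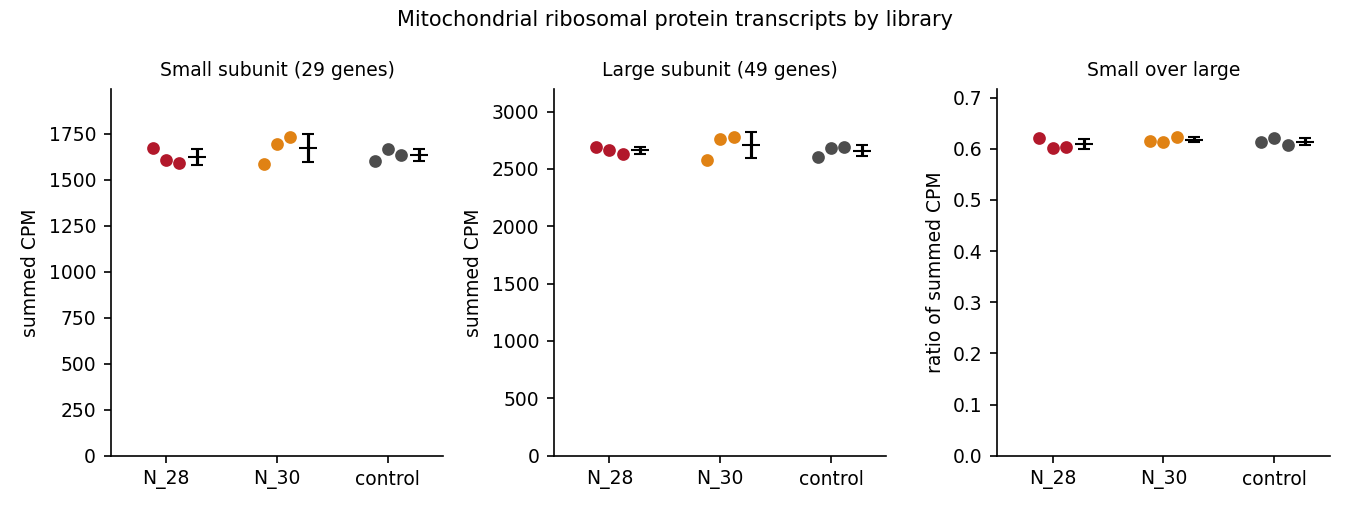
Summed CPM of the 29 small-subunit and 49 large-subunit genes and the ratio of the sums, for each library (points) of N_28, N_30 and control, with mean ± SD over 3 libraries. The ratios lie between 0.602 and 0.624 and the groups overlap in all 3 panels.

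Gene by gene, N_28 differed from control in few members. Of 77 members tested, 3 were called (3.90%), at an adjusted p under 0.05, against 10.2% of all 15019 genes tested. The small-subunit gene MRPS6 rose, as did 4.49% of all genes, and the small-subunit gene MRPS16 and the large-subunit gene MRPL43 fell, as did 5.75%. The small subunit thus had 2 of 28 members called and the large subunit 1 of 49. The median log2 fold change was 0.01 over all tested members, 0.02 over the small subunit and -0.01 over the large, and -0.0015 over all genes tested.

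MRPS16 encodes a small-subunit protein with a bacterial counterpart (S16), and recessive variants in it are a known cause of a severe deficiency of mitochondrial translation. MRPS16 (ENSG00000182180, chromosome 10, 73248843 to 73252693, minus strand, GENCODE release 29 on GRCh38) had 122, 116 and 114 CPM in N_28, 155, 166 and 182 CPM in N_30, and 156, 158 and 159 CPM in control. All 3 N_28 libraries lay below every control library, while N_30 overlapped control. The N_28 mean was 74.4% of control, with a log2 fold change of -0.43 (SE 0.063, adjusted p = 0.00063, edgeR quasi-likelihood test, Benjamini-Hochberg adjusted). MRPS16 kept this call in all 16 alternatives, with adjusted p between 1.06e-07 and 0.00519. In N_30 the log2 fold change against control was 0.09 (adjusted p = 0.659). MRPS16 was the most abundant small-subunit transcript by CPM in control, and without it the ratio of small to large subunit was 0.565 ± 0.00961 in N_28, 0.556 ± 0.00209 in N_30 and 0.555 ± 0.00702 in control. A stretch of 5.30% of its coding bases lies opposite exons of DNAJC9-AS1, which was detected in 1 of 9 libraries, at 0.0445 CPM.

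MRPS6 encodes a small-subunit protein with a bacterial counterpart (S6), which sits on the platform. MRPS6 (ENSG00000243927, chromosome 21, 34073224 to 34143034, plus strand) had 35.3, 34.5 and 33.5 CPM in N_28, 28.1, 29.3 and 26.3 CPM in N_30, and 31.05, 27.39 and 24.84 CPM in control. Every N_28 library lay above every library of the other groups, which overlapped each other. MRPS6 rose in N_28 by a log2 fold change of 0.31 (SE 0.085, adjusted p = 0.0316, same test). Of its coding bases, 49.3% are also exonic in 1 or both of AP000317.2 and SLC5A3, an inositol transporter gene, on the same strand. AP000317.2 had no reads in any library. SLC5A3 moved the other way, with 74.5 ± 4.42 CPM in N_28, 82.7 ± 3.23 CPM in N_30 and 95.0 ± 3.88 CPM in control, and a log2 fold change of -0.35 in N_28 (adjusted p = 0.00229). The part of this shared sequence in the MRPS6 counts was not tested. The MRPS6 call was lost without control library 2 or 3 (adjusted p = 0.0792 and 0.119) and without N_28 library 1, 2 or 3 (0.117, 0.0943 and 0.0621), with log2 fold changes of 0.24 to 0.33.

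MRPL43 encodes a large-subunit protein with no bacterial counterpart. MRPL43 (ENSG00000055950, chromosome 10, 100969458 to 100987515, minus strand) had 84.7, 81.7 and 82.6 CPM in N_28, 90.6, 96.9 and 101 CPM in N_30, and 93.51, 95.35 and 97.93 CPM in control. N_28 lay below every library of both other groups, and N_30 spanned the control range. It fell in N_28 by 0.20 on the log2 scale (SE 0.057, adjusted p = 0.0361, same test). The call was lost without control library 1, 2 or 3 (adjusted p = 0.0518, 0.0732 and 0.124), without N_28 library 1, 2 or 3 (0.0829, 0.130 and 0.0986) and without N_30 library 2 (0.0558), and also with no filter on low counts (0.0746). The gene shares 37.5% of its coding bases with exons of SEMA4G and TWNK on the opposite strand, and the sources used here do not state whether strand was used in counting.

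The other members were within a narrow range in N_28. Their libraries separated from control in 25 of 77 members (32.5%, counting the called ones), against 28.7% of all genes tested: 14 members were above control, as were 14.2% of all genes, and 11 below, as were 14.6%. Beyond the called genes, MRPS30, which despite its name is a large-subunit protein, had 54.1 ± 1.29 CPM in N_28, 46.0 ± 1.58 CPM in N_30 and 45.7 ± 5.70 CPM in control, with a log2 fold change in N_28 of 0.24 (SE 0.080, adjusted p = 0.0701). MRPL58, a large-subunit protein that acts as a peptidyl-tRNA hydrolase and rescues stalled ribosomes, had 44.6 ± 2.36 CPM in N_28, 40.35 ± 3.21 CPM in N_30 and 38.4 ± 0.824 CPM in control (log2 fold change in N_28 of 0.22, adjusted p = 0.0720). Both passed with the replicate number as a block, where 15.3% of all genes were called, and MRPS30 also passed in some other alternatives. MRPL36, the counterpart of bacterial L36, had 23.7 ± 1.83 CPM in N_28, 27.2 ± 0.70 CPM in N_30 and 28.3 ± 2.22 CPM in control (log2 fold change in N_28 of -0.25, adjusted p = 0.0737). MRPL36 passed without control library 1 (log2 fold change -0.31, adjusted p = 0.0404, edgeR quasi-likelihood test), where 1153 of all genes were called. MRPL50 had 26.1 ± 1.26 CPM in N_28, 27.7 ± 0.227 CPM in N_30 and 30.05 ± 1.34 CPM in control (log2 fold change in N_28 of -0.21, adjusted p = 0.0837).

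In N_30 against control, 0 of 77 members were called by edgeR, which called 0.866% of all genes tested. DESeq2 called 0 members and 1.74% of all genes, and edgeR with the replicate number as a block called 0 members and 2.82% of all genes. At an unadjusted p under 0.05 there were 4 of 77 (5.19%), against 11.4% of all genes tested: MRPS25, MRPL47, MRPS2 and MRPL40. MRPS25 stood at 39.5, 38.9 and 38.8 CPM in N_30 and at 34.9, 34.5 and 36.2 CPM in control, a log2 fold change of 0.15 (SE 0.060, adjusted p = 0.343). The N_30 libraries of MRPS25 lay above those of control without overlap. Such separation held for 10 of 77 members, against 15.2% of all genes tested, with 7 above control (7.53% of all genes) and 3 below (7.64% of all genes). Of the fold changes, 56 of 77 were above 0, against 49.8% of all genes tested, with a median log2 fold change of 0.04 in both subunits. The small-subunit median was -0.0033 without control library 1 and 0.07 without control library 2. The large-subunit median was 0.08 without N_30 library 1, and 0.02 without N_30 library 2 or 3. The members made up 0.420% of counts in N_30 library 1, 0.442% in library 2 and 0.452% in library 3, against 0.419% to 0.436% in control.

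**Figure D3:**
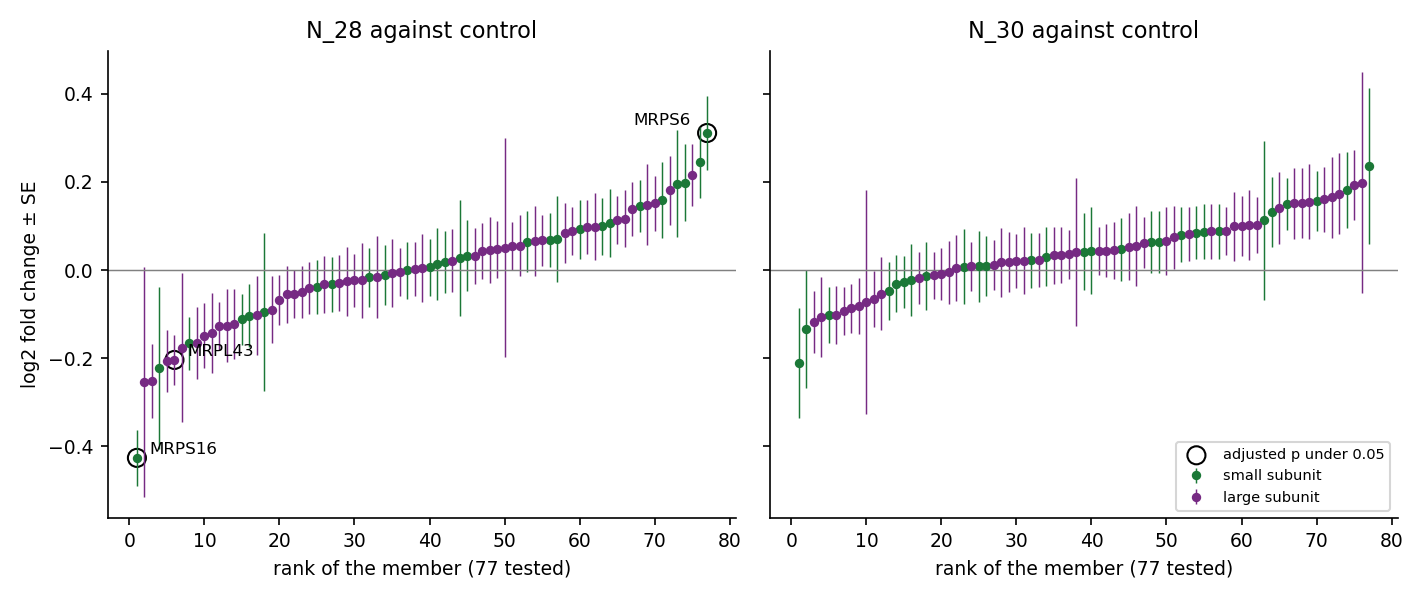
Log2 fold change ± SE of the 77 tested members, ranked from lowest to highest, in N_28 against control and in N_30 against control, coloured by subunit; circles mark members called at an adjusted p under 0.05. In N_28, MRPS16 (-0.43) and MRPS6 (0.31) stand at the ends of the ranking and MRPL43 (-0.20) is the third called member; in N_30 none is called.

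With both knock-downs averaged and set against control, 0 of 77 members passed, where edgeR called 1.78% of all genes tested. DESeq2 and edgeR with the replicate block also called 0, where they called 2.70% and 4.10% of all genes tested, and 7 members (9.09%) had an unadjusted p under 0.05, against 12.4% of all genes tested. Grouped by name, the MRPS members of lowest p were MRPS16 (log2 fold change -0.17, adjusted p = 0.170), MRPS25 (0.15, adjusted p = 0.230), MRPS11 (0.17, adjusted p = 0.374), MRPS6 (0.16, adjusted p = 0.402) and MRPS30 (0.13, adjusted p = 0.513). Among the MRPL members they were MRPL50 (-0.16, adjusted p = 0.265), MRPL1 of the L1 stalk (0.17, adjusted p = 0.330), MRPL58 (0.14, adjusted p = 0.351), MRPL36 (-0.15, adjusted p = 0.411) and MRPL43 (-0.10, adjusted p = 0.465). MRPS25 was similar in both sets, at 38.9 ± 1.10 CPM in N_28 and 39.1 ± 0.365 CPM in N_30, against 35.2 ± 0.915 CPM in control. Both sets lay above control without overlap in MRPS25, as they did in MRPL12, and both lay below control without overlap in MRPL50. How many of all genes separated from control in both sets was not counted. In MRPS16, MRPS6 and MRPL43 the N_30 libraries overlapped control, so the mean of both is smaller than the N_28 change.

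More members separated the knock-down sets from each other than separated either from control. In N_30 against N_28, 12 of 77 members were called (15.6%), against 18.3% of all genes tested. Of these, 6 rose in N_30 against N_28 (MRPS16, MRPL40, MRPS26, MRPL30, MRPL43 and MRPL34), as did 9.38% of all genes, and 6 fell (MRPL14, MRPL57, MRPS6, MRPL42, MRPS31 and MRPS5), as did 8.96%. With the replicate number as a block, 14 members were called, against 24.5% of all genes. The small subunit had 5 of 28 members called and the large subunit 7 of 49. The median log2 fold change was 0.01 over the small and 0.04 over the large subunit, beside 0.00 over all genes tested. Libraries did not overlap in 28 of 77 members (36.4%), against 36.4% of all genes tested.

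The largest of these differences was that of MRPS16, with a log2 fold change of 0.51 in N_30 against N_28 (SE 0.063, adjusted p = 7.8e-05, edgeR quasi-likelihood test, Benjamini-Hochberg adjusted), which held in all 16 alternatives. MRPL40, a large-subunit protein whose gene lies in the region deleted in 22q11.2 deletion syndrome, had 26.60, 26.01 and 26.90 CPM in N_30 and 20.9, 20.5 and 22.7 CPM in N_28, beside 23.3, 23.3 and 24.5 CPM in control. Its control libraries lay between those of N_30, above, and of N_28, below, without overlap. The log2 fold change of N_30 against N_28 was 0.31 (SE 0.074, adjusted p = 0.0103), and it was lost only without N_28 library 2 (adjusted p = 0.0524) among the 16 alternatives. MRPS26, a small-subunit protein particular to mitochondria, had 84.6, 93.7 and 91.2 CPM in N_30 and 79.90, 71.89 and 74.75 CPM in N_28, beside 85.54, 83.14 and 85.65 CPM in control. Only N_28 separated from the other groups in MRPS26, with N_30 above it by 0.25 on the log2 scale (SE 0.061, adjusted p = 0.0108). That call was lost without N_28 library 2 (adjusted p = 0.0625) and without N_30 library 2 (0.0544).

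MRPS31, a small-subunit protein particular to mitochondria, fell furthest in N_30 against N_28. It had 6.319, 7.497 and 7.125 CPM in N_30 and 10.1, 8.85 and 8.86 CPM in N_28, beside 6.945, 8.636 and 8.699 CPM in control. The control libraries lay below N_28 and overlapped N_30. The log2 fold change of N_30 against N_28 was -0.41 (SE 0.12, adjusted p = 0.0354), and the call was lost when any 1 of the 6 libraries of these sets was left out, with adjusted p between 0.0525 and 0.137. MRPS6 had a log2 fold change of -0.30 in the same comparison (SE 0.085, adjusted p = 0.0241), lost without N_28 library 1 or 2 or N_30 library 1 or 3 (adjusted p between 0.0597 and 0.0822).

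The other calls between the sets were of 0.20 to 0.32 on the log2 scale in size. MRPL30, the counterpart of bacterial L30, averaged 29.04 ± 1.66 CPM in N_30 and 23.3 ± 1.36 CPM in N_28 (log2 fold change 0.32, adjusted p = 0.0153), and 95.3% of its coding bases are shared with other genes on its strand. MRPL34, the counterpart of bacterial L34, averaged 38.5 ± 2.36 CPM in N_30 and 32.0 ± 3.34 CPM in N_28 (0.27, adjusted p = 0.0374). MRPL43 was higher in N_30 by 0.22 (adjusted p = 0.0184). Among the genes that were lower in N_30, MRPL14 averaged 97.2 ± 2.26 CPM in N_30 and 112.1 ± 3.84 CPM in N_28 (-0.21, adjusted p = 0.0188). MRPL57, one of the smallest proteins of the large subunit, averaged 28.8 ± 0.0873 CPM in N_30 and 33.8 ± 1.01 CPM in N_28 (-0.23, adjusted p = 0.0212). MRPL42, a large-subunit protein without a bacterial counterpart, averaged 63.4 ± 2.28 CPM in N_30 and 73.9 ± 3.88 CPM in N_28 (-0.22, adjusted p = 0.0327). MRPS5, at the mRNA entrance of the small subunit, averaged 117 ± 8.64 CPM in N_30 and 134 ± 1.02 CPM in N_28 (-0.20, adjusted p = 0.0437). Each of these 7 calls was lost without certain single libraries. MRPL30 lost it without N_28 library 3 or N_30 library 1 (adjusted p = 0.0714 and 0.0609), and MRPL14 without N_28 library 1 or 3 or N_30 library 1 (0.0504, 0.0778 and 0.0644). MRPL34 lost it without N_28 library 1 or 2 or N_30 library 2 or 3 (adjusted p between 0.0869 and 0.175), and MRPL43 without library 2 or 3 of either set (0.0567 to 0.0775). MRPL57 lost it without N_28 library 2 or 3 or N_30 library 1 or 2 (0.0562 to 0.0856) and with no filter on low counts (0.0682), and MRPL42 without N_28 library 2 or 3 or any N_30 library (0.0504 to 0.135). MRPS5 lost it without control library 2, any N_28 library, or N_30 library 1 or 3 (0.0506 to 0.156).

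**Figure D4:**
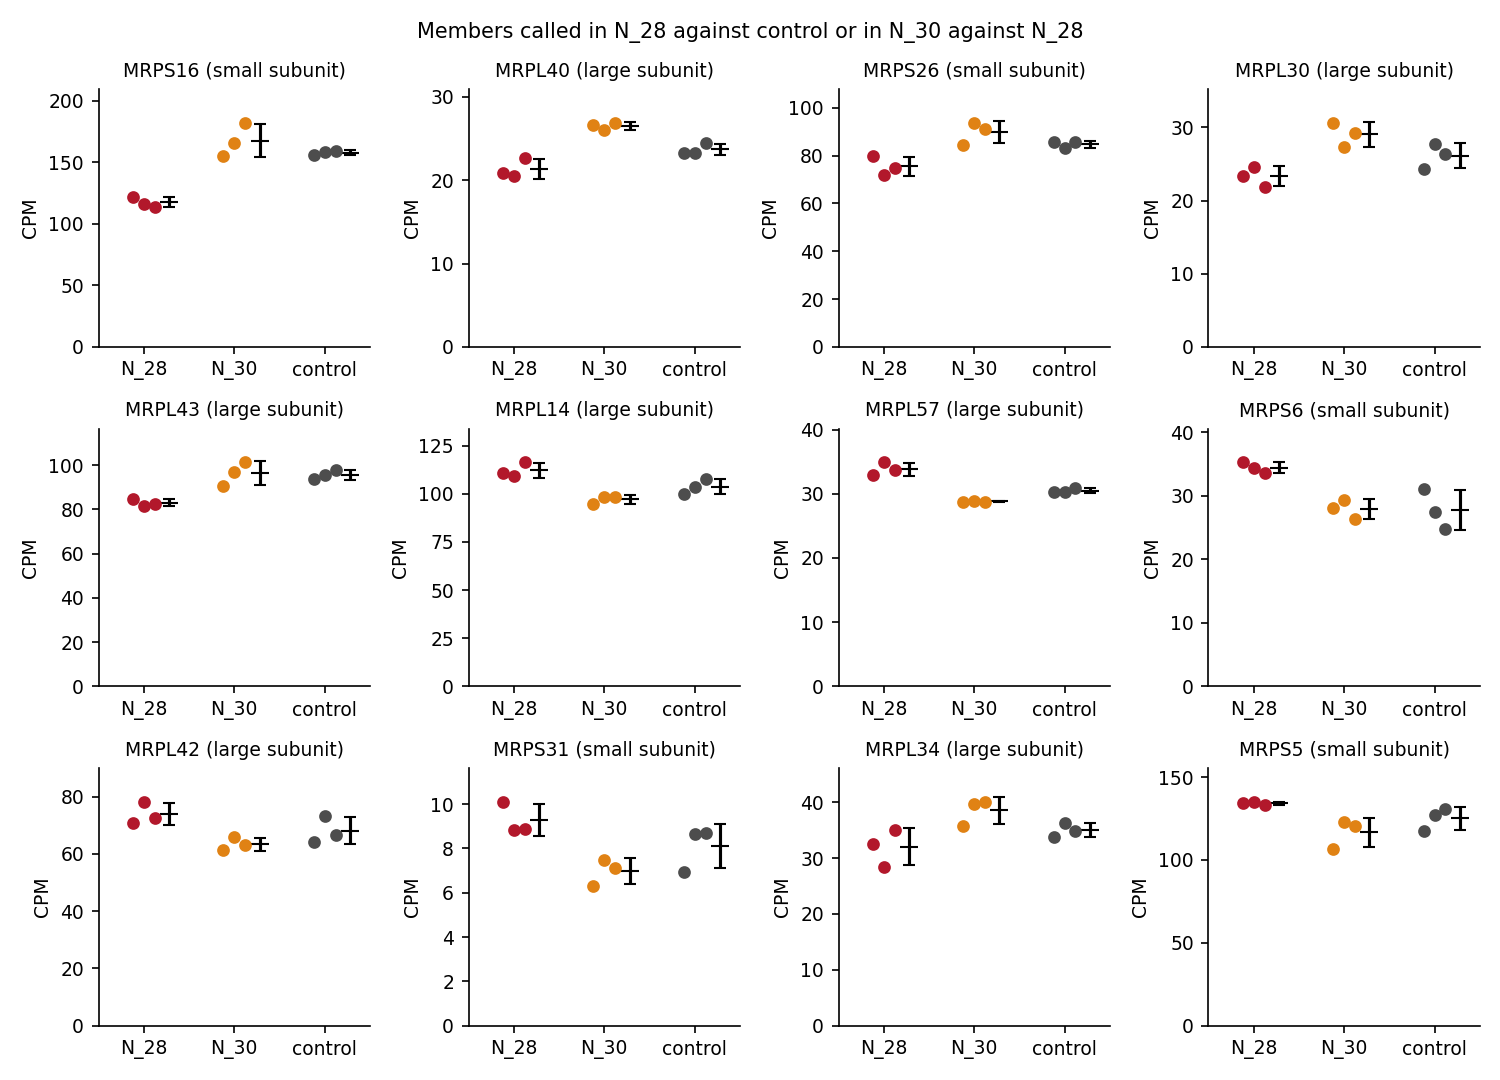
CPM in each library (points) of N_28, N_30 and control for the 12 members called in N_30 against N_28, among them the 3 called in N_28 against control, with mean ± SD over 3 libraries; each axis starts at 0. MRPS16 is at 114 to 122 CPM in N_28 while N_30 and control libraries are at 155 CPM or more, and in MRPL40 control lies between the knock-down sets.

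Neighbouring genes moved with several of these members. For each member, the median log2 fold change of all tested genes within 5 megabases was taken in the same comparison. In N_30 against N_28, MRPS31 and MRPL57, both on chromosome 13, had neighbour medians of -0.21 and -0.19, and the median of all 234 tested genes of that chromosome was -0.22. MRPL57 at -0.23 was thus near the middle of its neighbours, above 48.1% of them. MRPL40 on chromosome 22 had a neighbour median of 0.15 and a chromosome median of 0.17, and MRPS26 on chromosome 20 had 0.11 for both. For MRPL42 and MRPL14 the neighbour medians were -0.12 and -0.13, with chromosome medians of 0.01 and -0.04. MRPS16 and MRPL43 lie on chromosome 10, with neighbour medians of 0.10 and 0.09, and MRPS16 exceeded 94.3% of its 88 neighbours. MRPS6, MRPL30, MRPL34 and MRPS5 had neighbour medians between -0.02 and 0.02.

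Of the 12 members called in N_30 against N_28, 9 had the sign of their neighbour median, as had 51 of all 77 members (66.2%). Of the same 12, 8 had the sign of their chromosome median. These shares were not computed for all tested genes, so they are not shown to be particular to the members. Across the 77 members, the Pearson correlation of a member's log2 fold change with its neighbour median was 0.38 in N_28 against control, 0.21 in N_30 against control, 0.24 for both knock-downs averaged and 0.46 in N_30 against N_28, given as a description, since all points share the same libraries. In N_28 against control, MRPS16 (-0.43) and MRPS6 (0.31) had neighbour medians of -0.03 and 0.01. MRPS16 was above only 6.82% of its neighbours and MRPS6 above 94.0% of its own in that comparison. MRPL43 (-0.20) had a neighbour median of -0.07. All 3 had the sign of their neighbour median in N_28 against control, as had 48 of the 77 members (62.3%). What part the shifts of whole chromosomes have in the members' differences was not tested.

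**Figure D5:**
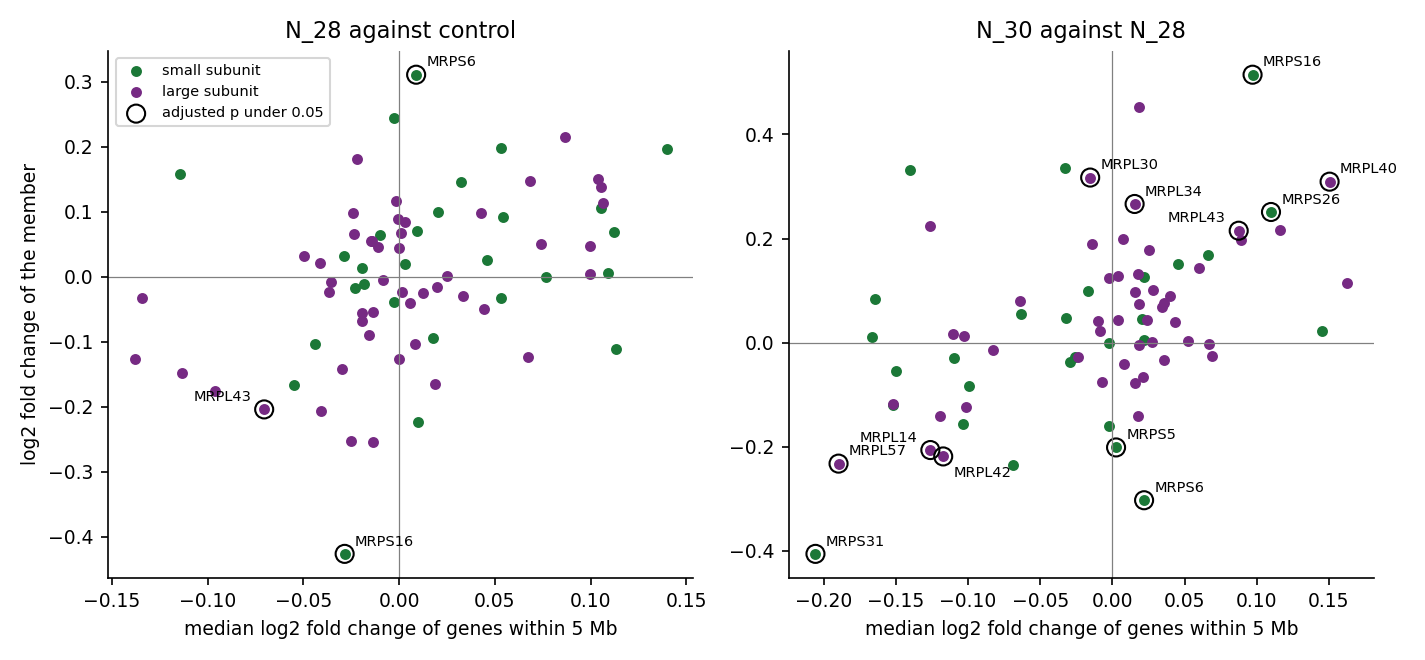
Log2 fold change of each of the 77 tested members against the median log2 fold change of the tested genes within 5 megabases of it, in N_28 against control and in N_30 against N_28; colours give the subunit and circles mark called members. In N_30 against N_28, MRPS31, MRPL57, MRPL40 and MRPS26 lie where the neighbours moved the same way. In N_28 against control, MRPS16 and MRPS6 lie far from their neighbours' medians, which have the same sign.

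Many members start back to back with another gene. An opposite-strand protein-coding gene starts within 1000 bases of 29 of the 78 members (37.2%), against 17.4% of tested protein-coding genes. MRPL43 starts 148 bases from TWNK, which encodes the Twinkle helicase of mitochondrial DNA replication. TWNK averaged 60.0 ± 1.87 CPM in N_28, 69.6 ± 4.35 CPM in N_30 and 70.6 ± 6.55 CPM in control, with a log2 fold change in N_28 of -0.24 (adjusted p = 0.0580) beside -0.20 for MRPL43. Exons of TWNK also share coding bases with MRPL43 on the opposite strand. The use of strand in counting is not stated, so these 2 rows may not be independent. MRPL57 starts 43 bases from SKA3, a kinetochore gene that rose in N_28 by a log2 fold change of 0.26 (adjusted p = 0.0499) and was lower in N_30 than in N_28 by -0.36 (adjusted p = 0.00647), beside -0.23 for MRPL57. The partners of the other called members that have one did not pass in N_30 against N_28: TMEM63B had a log2 fold change of -0.0068 beside -0.21 for MRPL14, and MITD1 had 0.07 beside 0.32 for MRPL30. Of the 27 tested pairs, SKA3 and 3 more partners were called in the same comparison, where 18.3% of all genes were called. The member was not called beside these 3: EME1 beside MRPL27 (-0.33 and -0.01), GGA3 beside MRPS7 (-0.19 and -0.03) and PPP1R10 beside MRPS18B (0.19 and -0.05). MRPS11 and MRPL46, 1 gene of each subunit, start 34 bases apart. MRPS11 had 27.5 ± 0.46 CPM in N_28, 27.96 ± 2.32 CPM in N_30 and 24.7 ± 2.30 CPM in control, and MRPL46 had 2.19 ± 0.222 CPM in N_28, 2.54 ± 0.0622 CPM in N_30 and 2.47 ± 0.0211 CPM in control. Neither was called in any of the 4 comparisons.

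Apart from MRPS16, the members named for a known role were not called against control in either set. MRPS22 and MRPS7, small-subunit proteins in which recessive variants impair mitochondrial translation, had log2 fold changes of 0.01 and -0.00074 in N_28 and of -0.02 and -0.03 in N_30. MRPL3 and MRPL44, linked to hypertrophic cardiomyopathy, had 0.03 and -0.10 in N_28 and 0.03 and -0.11 in N_30. MRPS12 of the decoding centre had 0.07 in N_28 and 0.08 in N_30, and MRPS34 had 0.02 in N_28 and 0.06 in N_30. MRPS27, a pentatricopeptide repeat protein, had -0.03 in N_28 and 0.02 in N_30. MRPL11 at the base of the stalk had 0.10 in N_28 and 0.02 in N_30, and MRPL12, the stalk protein that has also been described to bind the mitochondrial RNA polymerase, had 0.15 in N_28 and 0.165 in N_30. MRPL41 had -0.09 in N_28 and 0.05 in N_30, and the most abundant large-subunit transcript by CPM, MRPL37, had -0.02 in N_28 and 0.04 in N_30. MRPL12 libraries of both sets lay above control without overlap, with adjusted p of 0.363 in N_28 and 0.536 in N_30. None of these values passed the test, and the SE of a member's log2 fold change ran from 0.054 to 0.26 in N_28 against control, which bounds what could be detected. The biological coefficient of variation of the members had a median of 0.0611 and ran from 0.0496 to 0.168. The median over all genes tested, which were not matched to the members by level, was 0.0793.

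Other genes of mitochondrial translation were read from the same fit, beside the shares of all genes called (10.2% in N_28 against control, 0.866% in N_30 against control and 18.3% in N_30 against N_28). The mitoribosomal proteins with other names (DAP3, PTCD3, CHCHD1, AURKAIP1 and GADD45GIP1) had 0 of 5 called in every comparison, with log2 fold changes between -0.13 and 0.09 in N_28 and between -0.01 and 0.10 in N_30 against control. Of 16 translation factors, 13 mitochondrial mRNAs and 11 tested regulators of nuclear genes for mitochondria, 0 were called in any comparison. TUFM, the mitochondrial elongation factor Tu, averaged 315.5 ± 2.41 CPM in N_28, 340.9 ± 28.1 CPM in N_30 and 333.6 ± 5.96 CPM in control. The regulators NRF1, GABPA and YY1, whose motifs were searched above, had log2 fold changes of 0.01, 0.02 and 0.06 in N_28 and of 0.04, -0.12 and -0.0035 in N_30.

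Of 31 assembly factors and rRNA modifiers, 0 were called against control, and 2 rose in N_30 against N_28: the GTPase MTG2, with 106.5 ± 7.47 CPM in N_30 and 92.4 ± 3.32 CPM in N_28, and RCC1L, with 128.6 ± 5.55 CPM in N_30 and 113.1 ± 1.52 CPM in N_28. Of 20 mitochondrial aminoacyl-tRNA synthetases and amidotransferase subunits, 1 fell in N_28 against control. This was WARS2, the tryptophanyl-tRNA synthetase, at 8.60 ± 1.08 CPM in N_28, 11.2 ± 0.515 CPM in N_30 and 11.2 ± 0.676 CPM in control (log2 fold change in N_28 of -0.38, adjusted p = 0.0418). In N_30 against N_28, 4 of the 20 were called (20.0%, against 18.3% of all genes): WARS2, PARS2 and GATB rose and VARS2 fell. The 2 mitochondrial rRNAs, the scaffolds of the subunits, were not called: MT-RNR1 of the small subunit had 1037 ± 86.6 CPM in N_28, 982.5 ± 157 CPM in N_30 and 853.5 ± 103.5 CPM in control (log2 fold change in N_28 of 0.28, adjusted p = 0.128), and MT-RNR2 of the large subunit had 5154 ± 626 CPM in N_28, 5618 ± 1081 CPM in N_30 and 5703 ± 894 CPM in control. Both rRNAs overlapped between the groups. In libraries 1, 2 and 3, MT-RNR1 had 1046, 1119 and 947 CPM in N_28 and 860, 954 and 747 CPM in control. In N_30 it had 1157, 938 and 852 CPM. Each N_28 library was above the control library of the same number, while N_30 library 2 was below its own. MT-RNR2 was lowest in library 3 of each group, at 4431 CPM in N_28, 4726 CPM in N_30 and 4679 CPM in control.

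Cytosolic ribosomal proteins, for comparison, had 3 of 84 tested members called in N_28 against control (3.57%, against 10.2% of all genes; RPL12 and RPL10 rose and RPS23 fell). They had 0 called in N_30 against control (0.866% of all genes) and 8 in N_30 against N_28 (9.52%, against 18.3% of all genes), 5 of them higher. In N_30 against control, 67 of 84 were above 0 with a median log2 fold change of 0.06, beside 56 of 77 and 0.04 for the mitochondrial set. The share of counts in cytosolic ribosomal proteins was also lowest in N_30 library 1 among the N_30 libraries, at 4.65% against 4.96% and 5.07% in libraries 2 and 3.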

How the data were processed

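The authors deposited 1 table of raw counts, in whole reads for each gene, with human Ensembl identifiers and 1 column for each of 9 libraries; 0 columns were left unused. A mouse build, mm8, is named in the submitters' processing notes. The sources used here do not give the aligner, the counter, the annotation or the use of strand. Symbols came from a gene name table and GENCODE release 29, which left 3580 of 60448 rows without a name. Coordinates, transcript lengths and exon overlaps are from GENCODE release 29, and promoters are from RefSeq (GRCh38.p14).

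Counts were scaled by TMM and fitted with edgeR 4.0.16 (R 4.3.3; quasi-likelihood test; filterByExpr with a minimum count of 10; Benjamini-Hochberg adjustment over 15019 genes) as 1 model over the 9 libraries, with the 3 groups as terms. SE is the size of the fold change over the square root of its F statistic, and levels are TMM-scaled CPM. The fit was tested on simulated data. A count of 3 equals at most 0.181 CPM, a floor for counting error only. Pairs of libraries within a group differed by more than sampling noise, so none was treated as a copy.

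The members and all gene lists were chosen with earlier results of these data known. Named were all called members, the 5 of each subunit with lowest p against control over both knock-downs, the 3 highest and 3 lowest of each subunit per kilobase, members with known roles, and called genes of the pathway lists; MRPL36, MRPL58 and other members named for values near the threshold in 1 comparison were chosen after their values were seen. Deviations of same-numbered N_30 and control libraries had correlations of 0.122, 0.169 and 0.306. Libraries of different numbers were not compared and the labels do not name pairs, so pairing is neither shown nor excluded. The main fit held no term for the replicate number, which entered only in the alternative with a replicate block. With that block, more of all genes were called in every comparison. The share went from 10.2% to 15.3% in N_28 and from 0.866% to 2.82% in N_30, each against control. It went from 1.78% to 4.10% for the mean of both, and from 18.3% to 24.5% in N_30 against N_28. An effect of library number was not tested further. Same-numbered pairs with N_28 had correlations of -0.0588 to 0.142 with control and of -0.0253 to 0.235 with N_30. Alternatives were DESeq2 1.42.0, its size factors, 2 other filters, the groups compared alone, a replicate block, libraries 1 and 2 only, and leaving out each library.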

Additional observations from a re-analysis of the deposited data

Results flagged for a closer look

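The effects of the knock-down sets differed by the test of N_30 against N_28 (edgeR quasi-likelihood test, Benjamini-Hochberg adjusted over all genes) in 12 members, which is what marked them, beside 18.3% of all genes tested. The difference of the log2 changes, N_30 minus N_28, was 0.51 for MRPS16, 0.31 for MRPL40, 0.25 for MRPS26, 0.32 for MRPL30, 0.22 for MRPL43 and 0.27 for MRPL34. It was -0.21 for MRPL14, -0.23 for MRPL57, -0.30 for MRPS6, -0.22 for MRPL42, -0.41 for MRPS31 and -0.20 for MRPS5. For MRPS16, the log2 change against control was -0.43 in N_28 and 0.09 in N_30. Genes within 5 megabases had medians of the same sign in 9 of the 12, and their part was not tested.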

How the results depend on the processing

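No call reversed its direction under any alternative run. The call of MRPS16 held in all 16 alternatives in both of its comparisons. With the replicate number as a block, 5 members were called in N_28 against control in place of 3, with MRPS30 and MRPL58 added. In N_30 against N_28, 14 were called in place of 12. The block changed no count in N_30 against control or in the mean of both, which stayed at 0. No groups are shown to be paired. With libraries 1 and 2 only, 1 member was called in N_28 against control and 2 in N_30 against N_28. In N_28 against control, that fit called 1251 of all genes, against 1538 in the main fit. Leaving out 1 library gave 1 to 3 members in N_28 against control, with 1 when control library 3 or any N_28 library was left out. Without control library 3 and without N_28 library 1, 2 and 3, 1206, 967, 1028 and 1142 of all genes were called. Leaving out 1 library gave 3 to 13 members in N_30 against N_28: 7, 3 and 5 without N_28 library 1, 2 and 3, and 7, 6 and 6 without N_30 library 1, 2 and 3. The counts over all genes in these N_30 against N_28 fits are not given here. Fewer libraries enter these fits. Leaving out the most abundant member of each subunit gave a ratio of small to large subunit of 0.603 in N_28, 0.594 in N_30 and 0.593 in control. With MRPS30 and MRPS18A counted as large and MRPS36 left out, an alternative chosen after seeing the data, it was 0.555 in N_28, 0.571 in N_30 and 0.567 in control. These shifts follow from the members removed. Members of low count, such as MRPL53 with an SE of 0.26, allow only large changes to be detected.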
